A study of Ovis aries with 14 samples.

Results

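The homeobox patterning genes described here are the HOX genes of the A, B, C and D clusters together with 7 further families, PBX, MEIS, IRX, SIX2 and its relatives, PITX, DLX and MSX. They were chosen by gene symbol from those that the deposited tables list, without regard to their values. This gave 44 of 17323 genes, 24 of them HOX genes. The fetal table lists 42 of them and each of the adult tables lists 37, and 35 are in all 3 tables.

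The samples were whole frozen ovaries of wild type Suffolk sheep, sequenced as RNA in 14 libraries. There were 3 control and 3 testosterone libraries of fetuses labelled day 90, and 4 control and 4 testosterone libraries of adults labelled year 2. The testosterone groups were born to, or carried by, ewes injected in the muscle with testosterone propionate in cottonseed oil 2 times a week between days 30 and 90 of gestation, so the exposure was prenatal at both ages. The labels give no treatment of the control ewes and do not say whether fetuses shared a mother, so p-values measure the spread between these samples. The study compared testosterone with control within each age. In whole ovary, fewer cells of a type and less RNA per cell cannot be told apart.

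HOX proteins are transcription factors that give cells a position along the body axis. Their genes lie in 4 clusters, and low-numbered paralogs act toward the head while high-numbered paralogs act toward the tail. In the mouse the high-numbered genes also lay out the female reproductive tract, with Hoxa9 in the oviduct, Hoxa10 in the uterus and Hoxa13 in the vagina. PBX and MEIS proteins, of the TALE class, bind DNA together with HOX proteins. The other 5 families pattern other structures, and in the mouse several of them act in the gonad. Irx3 and Irx5 act in granulosa cells, Msx1 and Msx2 at the entry of fetal germ cells into meiosis, and Dlx5 and Dlx6 in follicles.

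By cluster, the tables list 5 HOXA, 7 HOXB, 8 HOXC and 4 HOXD genes. The other families are represented by 2 PBX, 3 MEIS, 3 IRX, 2 PITX, 4 DLX and 2 MSX genes and SIX2, SIX3, SIX4 and SIX5. RefSeq's sheep annotation, assembly ARS-UI_Ramb_v3.0, matched 43 of the 44 by symbol and placed the matched genes of each HOX cluster on 1 chromosome. In that annotation SIX2 and SIX3, IRX3 and IRX5, IRX5 and IRX6, and DLX5 and DLX6 are neighbours with 0 coding genes between them.

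Recovered depth was 22.6 to 33.4 M reads per library. Levels are given as RPM, the reads of a gene per 1000000 reads after scaling the libraries with TMM, a method that aligns the bulk of genes between libraries. They are not divided by gene length, so they compare libraries for 1 gene and not genes with each other. Several libraries stood apart from others of their age. Adult control 6 and testosterone 4 and 7 had a summed level of 6 corpus luteum markers of 9300 to 10300 RPM, against 204 to 433 in the other 5 adult libraries. Adult control 4 had a summed level of 9 smooth muscle markers of 35700, against 3010 to 9710 in the other 7, and it also had the highest sums of the endothelial markers, 4080, and of the theca and stroma markers, 40400. Germ cell markers were listed at both ages, with DDX4 at 107 to 226 RPM in the fetal libraries and 0.853 to 3.62 in the adult ones.

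**Figure D1:**
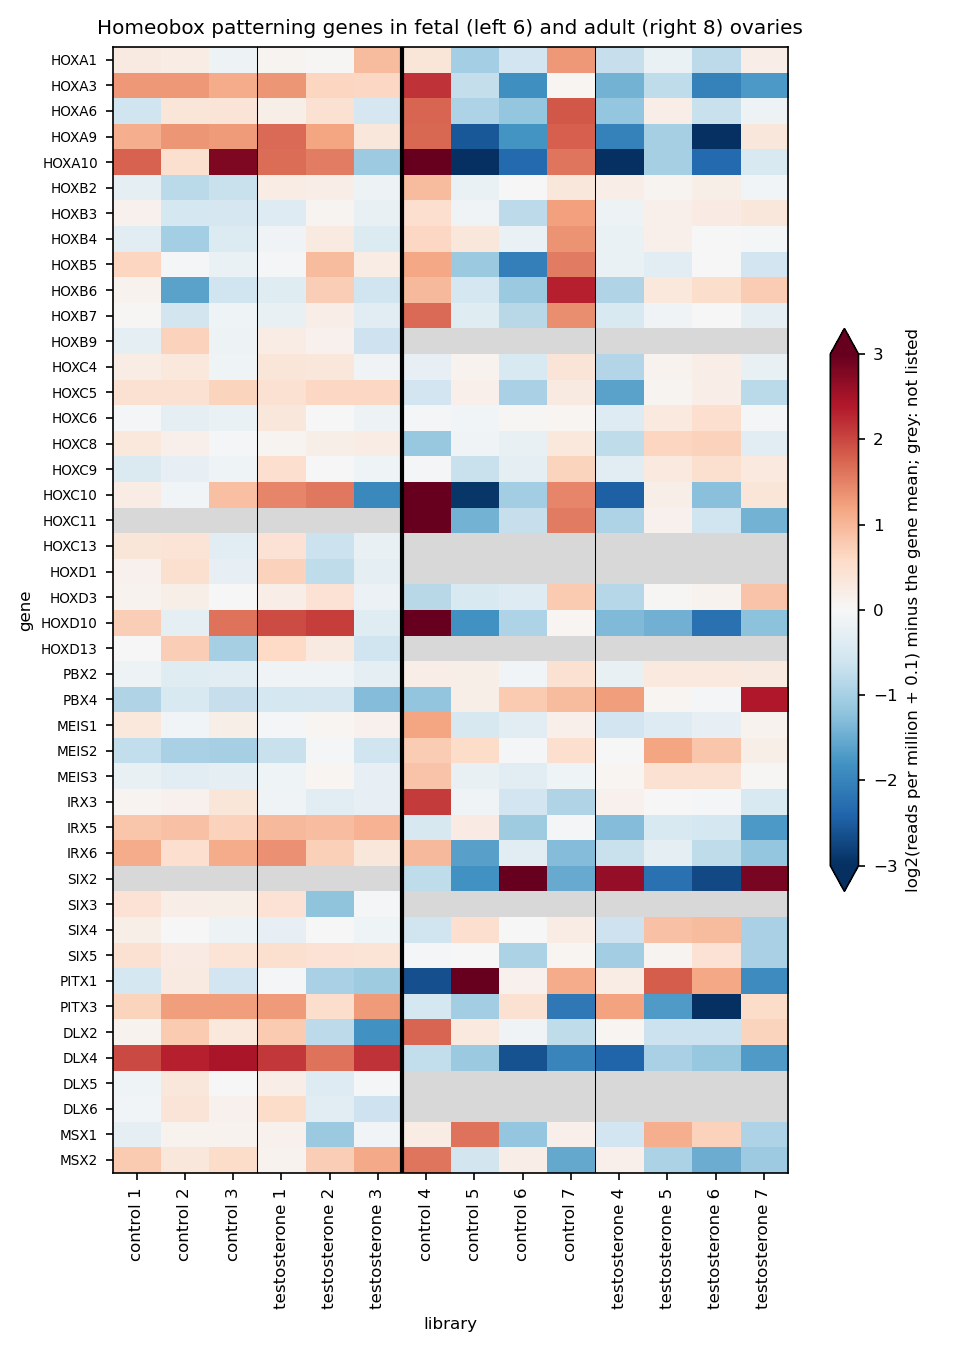
Levels of the 44 genes (rows, by family) in the 14 libraries (columns; 6 fetal left of the thick line, 8 adult right of it, with a thin line between control and testosterone libraries). Colour is log2(RPM + 0.1) minus the mean of the gene over its listed libraries, cut at 3 on either side, and grey marks a table that does not list the gene; HOXA10 departs most, by 4.76 in adult control 4 and by -3.85 in adult control 5, and SIX2 is at 3.56 in adult control 6 and HOXC10 at 3.51 in adult control 4.

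In the fetal ovary none of the 42 genes passed the test of testosterone against control. Their smallest p after adjustment over all genes was 0.335, for HOXB2, by limma, a linear model on log2(normalized count + 1) with Benjamini-Hochberg adjustment. At a threshold of 0.05 limma called 3 of 16513 fetal genes, or 0.0182%, so few calls were made anywhere in the table. DESeq2 on the recovered reads called 1.61% of genes and 0 of the 41 members with an adjusted p (DLX2 had none), with a smallest of 0.0986, again for HOXB2. In the authors' deposited table the smallest adjusted p among the 42 was 0.0916, for HOXB2, with a log2 change of 0.67.

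Of the 42 genes 3 had an unadjusted limma p under 0.05, and edgeR and DESeq2 gave these and HOXC9. HOXB2, which in other vertebrates patterns the hindbrain, was at 8.81, 6.02 and 6.66 RPM in controls 1 to 3 and at 12.4, 12.1 and 9.57 in the testosterone libraries. All 3 testosterone libraries lay above all 3 controls, with means of 7.16 ± 1.47 and 11.4 ± 1.55 (SD, n = 3 each). Its log2 change was 0.68 with a standard error of 0.19 (limma unadjusted p = 0.0074). Leaving out each library in turn kept the log2 change between 0.56 and 0.84.

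MEIS2, a TALE cofactor of HOX proteins, was at 19.2, 16.3 and 16.0 RPM in the controls and at 20.1, 31.1 and 21.1 in the testosterone libraries. The groups did not overlap, but the nearest libraries were close, and testosterone 2 stood above the others. Its log2 change was 0.47 with a standard error of 0.18 (limma unadjusted p = 0.0331, adjusted p = 0.47), and it was 0.27 without testosterone 2. IRX3 was at 9.44, 9.68 and 11.5 in the controls and at 8.26, 7.08 and 7.49 in the testosterone libraries. Here every testosterone library was below every control, and the log2 change was -0.41 with a standard error of 0.15 (limma unadjusted p = 0.0273, adjusted p = 0.453).

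Over all fetal genes, an unadjusted limma p under 0.05 was reached with testosterone higher in 5.26% and lower in 4.5%. Against that, 2 of 42 higher and 1 of 42 lower are close to the background. These counts depended on single libraries. Without testosterone 3 there were 7 higher and 0 lower (HOXB2, HOXC6, HOXC9, HOXC10, HOXD10, MEIS2 and MEIS3 higher), against 6.08% of all genes higher. In that fit 1202 of all 16513 genes were lower. Without testosterone 1 there were 2 higher and 4 lower (DLX2, DLX6, HOXA3 and IRX3 lower), against 3.94% of all genes lower. Here 760 of all 16513 genes were higher. With edgeR the shares were 5.41% and 4.33% of all genes and with DESeq2 5.5% and 4.54%, beside 3 of 42 higher and 1 lower in each. Groups did not overlap for 4 of the 42 with testosterone higher (HOXB2, HOXC9, IRX5 and MEIS2) against 8.88% of all genes. They did not overlap for 1 of 42 with testosterone lower (IRX3) against 7.46%.

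The remaining fetal genes without overlap had smaller or less certain differences. HOXC9, a trunk patterning gene, ran from 8.78 to 10.9 RPM in the controls and from 11 to 17.0 in the testosterone libraries, with a log2 change of 0.42 and a standard error of 0.19, and of 0.24 without testosterone 1. IRX5 ran from 13.9 to 16.0 and from 16.6 to 18.0, with a log2 change of 0.20 and a standard error of 0.12. IRX3 and its neighbour IRX5 thus differed in opposite directions. Both differences failed the adjusted test.

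Summed levels of several cell type marker lists were also apart between the fetal groups, without a test. Of 10 marker lists, the summed level did not overlap for 4 with testosterone higher and 1 with testosterone lower. Of all single fetal genes, 8.88% and 7.46% had no overlap in these directions. A sum follows the most abundant genes of its list, so it need not hold for each marker. Smooth muscle markers (9 of 10 listed) summed to 1610 to 2100 RPM in the controls and 2180 to 3090 in the testosterone libraries. The theca and stroma markers (8 of 9) summed to 6460 to 8790 and 9070 to 10900. Those of granulosa (7 of 11) summed to 84.5 to 98.9 and 116 to 125, and those of surface epithelium and mesothelium (5 of 8) to 264 to 311 and 346 to 356. Leukocyte markers (7 of 8) were the lower list, at 92.8 to 112 and 81.8 to 88.7. No listed marker was at 0 in a fetal library, and the part of these cell types in the HOXB2, MEIS2, HOXC9, IRX5 and IRX3 differences was not tested.

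**Figure D2:**
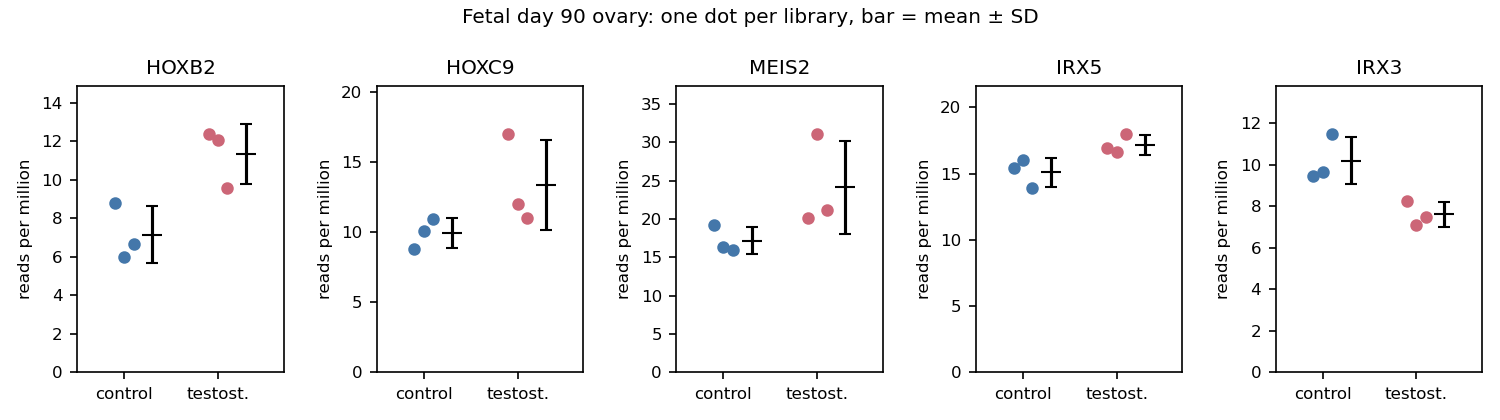
Level in RPM (vertical axes, from 0) of the 5 genes whose fetal control and testosterone libraries do not overlap; each dot is 1 library and the bar is the mean ± SD (n = 3). HOXB2 has the smallest p, with means of 7.16 and 11.4, and no gene passed the adjusted test.

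The 42 genes as a group were centred on no change. Their median log2 change was 0.02, with 21 of 42 above 0, beside a median of -0.019 over all fetal genes. The 23 fetal HOX genes had a median of 0.07, with 15 above 0 and 8 below. The median standard error of the 42 log2 changes was 0.30, with a range of 0.09 to 0.90, so the data were least precise for the genes that varied most between libraries.

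HOXC6 and HOXD3 overlapped between the fetal groups. HOXC6 was at 54.5, 46.5 and 49.0 RPM in the controls and at 71.4, 55.4 and 50.4 in the testosterone libraries. HOXD3 was at 12, 12.7 and 11.1 and at 12.9, 15.1 and 9.92. For both genes the treated range covered or reached into the control range, with log2 changes of 0.24 (SE 0.14) and 0.07 (SE 0.18).

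Among the cofactors, PBX2 was at 130, 112 and 114 RPM in the fetal controls and at 134, 134 and 118 in the testosterone libraries. MEIS1 was at 71.3, 53.6 and 64.4 and at 55.5, 58.9 and 62.1. These levels overlapped between groups. SIX5 was at 60.4, 52.8 and 58.9 and at 61.4, 59.9 and 58.8, the narrowest spread over 6 libraries of SIX3, SIX4 and SIX5. MSX1 was at 7.21, 9.31 and 9.34 in the controls and at 9.44, 3.93 and 8.16 in the testosterone libraries, where testosterone 2 was the low value. PITX3, known for its part in the lens and in midbrain neurons, was at 1.21, 1.88 and 1.87 and at 1.91, 1.09 and 1.89, again with full overlap.

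High-numbered HOX genes were among the most variable in the fetal libraries. HOXA10 was at 9.07, 3.63 and 18.6 RPM in the controls and at 8.46, 7.66 and 1.15 in the testosterone libraries, a span of 16.1-fold, with a log2 change of -0.99 and a standard error of 0.82. HOXC10 was at 1.9, 1.51 and 3.09 and at 4.63, 5.03 and 0.352. HOXD10 was at 5.27, 2.55 and 9.85 and at 12.3, 13.4 and 2.4. Testosterone 3 was the lowest library for all 3 of these paralog-10 genes. Control 2 was the lowest of the controls for each, and control 3 the highest.

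By paralog number, 4 of the 8 fetal HOX genes numbered 9 to 13 spanned more than 3-fold over the 6 libraries (HOXA10, HOXC10, HOXD10 and HOXD13). Of the 9 genes numbered 4 to 8, 1 did so (HOXB6), and of the 6 genes numbered 1 to 3, 0 did. Over the 42 genes the count was 7, or 16.7%, against 6.13% of the genes in all tables. The 2 shares rest on unlike sets, since HOXD13 and SIX3, counted among the 7, are not in all tables. These spans were looked at after the values were seen and carry no test. They also reflect counting error in genes with few reads, such as DLX2, which had 1 to 21 reads.

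Of the fetal genes 7 are listed in the fetal table and not in the adult tables: HOXB9, HOXC13, HOXD1, HOXD13, DLX5, DLX6 and SIX3. They make up 16.7% of the 42, while 7.02% of all fetal genes, 1159 of 16513, are listed in that table only. The lowest read total of any gene in each table was 61 over its 6 libraries, so a gene that is not listed may still have had some reads. HOXC11 and SIX2 are listed in the adult tables and not in the fetal one.

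Of these fetal-only genes HOXD1, a low-numbered gene of the D cluster, had the most reads. It was at 4.61, 5.95 and 3.53 RPM in controls 1 to 3 and at 6.88, 2.46 and 3.43 in the testosterone libraries. DLX6 was at 2.63, 3.7 and 3.09 and at 4.13, 2.19 and 1.79. HOXC13, known for its part in hair and nail, was at 2.71, 2.82 and 1.63 and at 2.85, 1.3 and 1.79. In each of the 3, control 2 and testosterone 1 were the highest libraries, 1 from each group.

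The same pair was highest for DLX5, HOXB9 and HOXD13 as well, 6 of the 7 or 85.7%. Over all fetal genes that pair was highest for 9.54%, and over the genes listed in the fetal table only for 13.6%. Over the 42 fetal genes described here it was highest for 10, or 23.8%. The pair was picked after the values were seen, so these shares are a description with no test. The same pair was highest for 7 of 10 listed germ cell markers, among them DDX4, the RNA helicase of germ cells, which was at 151, 226 and 125 RPM in the controls and at 160, 107 and 107 in the testosterone libraries. The germ cell marker sum ran from 483 to 688 in the controls and from 380 to 564 in the testosterone libraries. Whether germ cell content has a part in the levels of these 6 genes was not tested. SIX3, a forebrain gene, had another order, at 1.79, 1.51 and 1.49 RPM in the controls and at 1.81, 0.513 and 1.28 in the testosterone libraries.

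**Figure D3:**
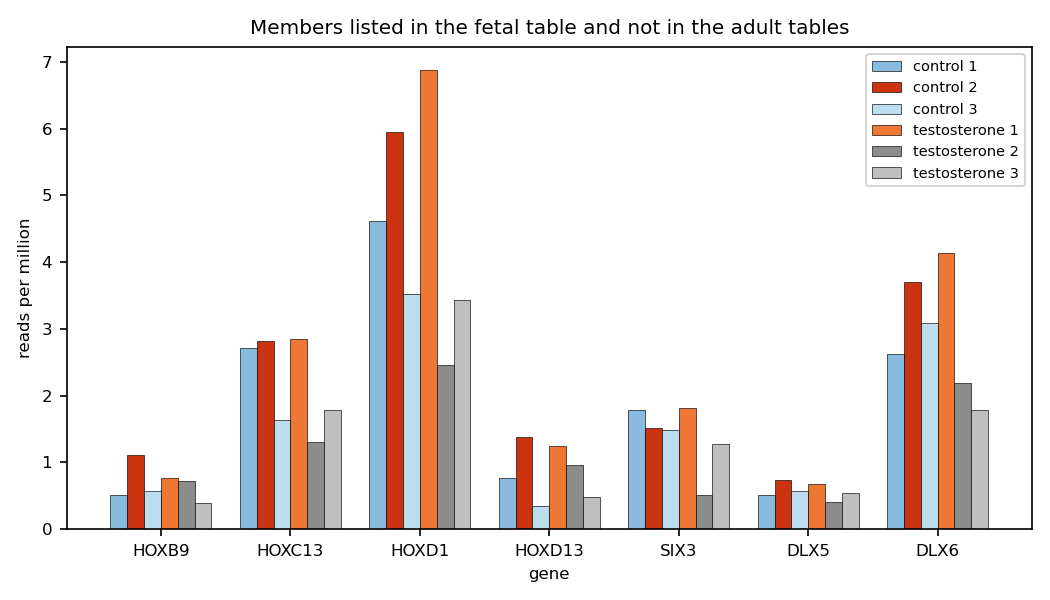
Level in RPM (vertical axis, from 0) of the 7 genes that the fetal table lists and the adult tables do not, with 1 bar for each fetal library. Control 2 (red) and testosterone 1 (orange) are the 2 highest bars for 6 of the 7, all but SIX3.

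In the adult ovary none of the 37 genes was called in either table. The first table compares controls 4, 5 and 6 with testosterone 4, 5 and 6, and the second compares controls 4, 6 and 7 with testosterone 5, 6 and 7. They share 4 libraries and so are not independent. The smallest limma adjusted p among the 37 was 1 in each table, where 0.00631% and 0.00623% of all genes were called. DESeq2 called 0.0257% and 0.0318% of all genes and 0 of the members it tested, with a smallest adjusted p of 0.257 for HOXA10 in the second table. It tested 33 of the 37 in the first table, where it gave no p to HOXA10, HOXC10, HOXD10 and SIX2, and 36 in the second, where it gave none to SIX2. With all 8 libraries in 1 limma fit, 0.0127% of genes and 0 of the 37 were called.

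Unadjusted p-values differed between tools. An unadjusted limma p under 0.05 was reached by 0 of the 37 in both tables, against 0.309% of all genes higher and 0.328% lower in the first and 0.255% and 0.23% in the second. In the first table edgeR gave 1 of the 37 lower (HOXD10) against 0.776% of all genes, and DESeq2, which did not test HOXD10 there, gave 1 lower (HOXA3) against 1.5%. In the second edgeR gave 2 lower (HOXA10 and HOXD10) against 0.884%. There DESeq2 gave 6 lower, HOXA3, HOXA10, HOXC10, HOXC11, HOXD10 and MSX2, against 1.49%. Without control 4, DESeq2 gave 0 of the 37 lower in either table and 1 higher in the first (MEIS3). Over all genes those fits gave 126 of 15856 higher and 142 lower in the first table, and 58 of 16064 lower in the second. Without control 6, limma gave 9 of the 37 lower in the second table (HOXA3, HOXA6, HOXA9, HOXA10, HOXB5, HOXB7, HOXC10, HOXC11 and HOXD10), against 1.01% of all genes. That fit keeps only controls 4 and 7, which were the 2 highest adult libraries for each of these 9 genes.

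The precision was lower in adults than in fetuses. The median standard error of the log2 changes of the 37 genes was 0.71 in the first adult table and 0.75 in the second, against 0.30 in the fetal table. Groups overlapped for every one of the 37 in the first table, where 1.65% and 1.92% of all genes had no overlap with testosterone higher and lower. In the second adult comparison 1 gene had no overlap, with testosterone lower (HOXD10), against 1.56% of all genes in that direction and 1.05% in the other. Over all 8 libraries 0 of the 37 had no overlap, against 0.432% of genes higher and 0.292% lower.

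HOXD10, a high-numbered gene of limb and trunk patterning, was at 28.5, 0.811, 1.6 and 3.24 RPM in adult controls 4 to 7 and at 1.19, 1.09, 0.584 and 1.27 in testosterone 4 to 7. Control 4 was far above all other libraries, and control 5 lay within the testosterone range. In the second table, which has no control 5, the log2 change was -2.5 with a standard error of 1.06 (limma unadjusted p = 0.0507, adjusted p = 1). Without control 4 it was -1.28 in that table. In the first table the value was -1.81, and -0.23 without control 4.

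HOXA10, which in the mouse patterns the uterus, had the widest span of any of the 37. It was at 72.4, 0.0854, 0.434 and 8.0 RPM in adult controls 4 to 7 and at 0.127, 1.25, 0.429 and 1.86 in testosterone 4 to 7. Control 4 had 1528 reads of it, control 7 had 185, and control 5 had 2. The log2 change was -1.91 with a standard error of 2.29 in the first table, where it turned to 0.80 without control 4, and -2.68 with a standard error of 1.7 in the second. DESeq2, which compares mean levels and not mean logs, gave -4.59 in the second table and -1.87 there without control 4, and the authors' deposited table also gives -4.59.

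More adult HOX genes had log2 changes below 0 than above, and the balance depended on which controls were in the fit. Among the 20 adult HOX genes the log2 change was below 0 for 13 in the first table, with a median of -0.17, and for 14 in the second, with a median of -0.57. Without control 4 the first table had 6 below 0 and a median of 0.27. Without control 7 the second table had 11 below 0 and a median of -0.22. With all 8 libraries 16 were below 0 with a median of -0.37, which moved to -0.25 without control 4 and -0.15 without control 7. Leaving out control 6 moved the medians the other way, to -0.28 in the first table, -1.18 in the second and -0.82 with all other libraries. Over all adult genes the medians were -0.011 in the first table and -0.007 in the second.

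Among the adult HOX genes the clearest structure was between libraries. Controls 4 and 7 were the 2 highest of the 8 libraries for 15 of the 37 genes, or 40.5%, against 3.17% of all genes. These were all 5 HOXA genes, all 6 listed HOXB genes, HOXC10, HOXC11, HOXD10 and MEIS1. Among the 20 HOX genes the share was 70.0%, and among the 17 others it was 5.88%. The pair was picked after the values were seen, so these shares are a description with no test.

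HOXA9 shows the pattern. Controls 4 and 7 had 7.58 and 7.91 RPM of it, where controls 5 and 6 had 0.299 and 0.568 and testosterone 4 to 7 had 0.466, 1.05, 0.117 and 2.83. For HOXB6, controls 4 and 7 had 4.31 and 11.2 RPM, controls 5 and 6 had 1.45 and 0.935, and testosterone 4 to 7 had 1.1, 2.69, 3.12 and 3.71. For both genes control 7 was the highest library. HOXB2 was at 20.5, 9.18, 10.5 and 13.5 in controls 4 to 7 and at 12.1, 11.3, 12 and 9.92 in testosterone 4 to 7, a much narrower span of 2.24-fold.

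For HOXC4 to HOXC9 and HOXD3, control 4 was not among the 2 highest libraries. Control 7 was the highest for HOXC4 (15.2 RPM), HOXC5 (4.8) and HOXC9 (19.0), with testosterone 6 next at 13.3, 4.52 and 16.7. HOXC6 was at 54.2, 53.2, 57.9 and 58.9 RPM in adult controls 4 to 7 and at 42.8, 68.5, 80.1 and 54.1 in testosterone 4 to 7. HOXC8 was at 5.73, 11.8, 10.9 and 15.8 and at 7.41, 19.9, 20.5 and 10.2. Testosterone 5 and 6 were the highest libraries for HOXC6 and HOXC8, and control 4 was the lowest for HOXC8. HOXD3 was at 6.21, 8.07, 8.45 and 19.3 in the controls and at 6.14, 11.5, 12.1 and 20.4 in the testosterone libraries, highest in testosterone 7 and control 7.

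The widest spans over adult libraries were among the HOX genes numbered 9 to 13, with a median of 58.2-fold, against 3.91-fold for those numbered 4 to 8 and 4.18-fold for those numbered 1 to 3. These spans were looked at after the values were seen, carry no test and include genes with few reads. With libraries of fewer than 3 reads counted at 3, a span above 10-fold was found in 5 of the 6 genes numbered 9 to 13 (HOXA9, HOXA10, HOXC10, HOXC11 and HOXD10), with HOXC9 as the exception at 2.53-fold. It was found in 3 of the 9 genes numbered 4 to 8 (HOXA6, HOXB5 and HOXB6) and in 1 of the 5 numbered 1 to 3 (HOXA3, 21.1-fold). Over the 37 genes the count was 13, or 35.1%, against 11.7% of the genes in all tables. HOXC11 and SIX2, counted among the 13, are not in all tables. HOXC10 was at 19.5, 0.128, 0.735 and 4.67 RPM in controls 4 to 7 and at 0.212, 1.83, 0.623 and 2.1 in testosterone 4 to 7. HOXC11 had 55 reads in control 4 and 16 in control 7, and 0 to 5 in the other 6 libraries. It had 0 reads in control 5 and testosterone 7, where a count of 0 allows up to 0.128 and 0.147 RPM.

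**Figure D4:**
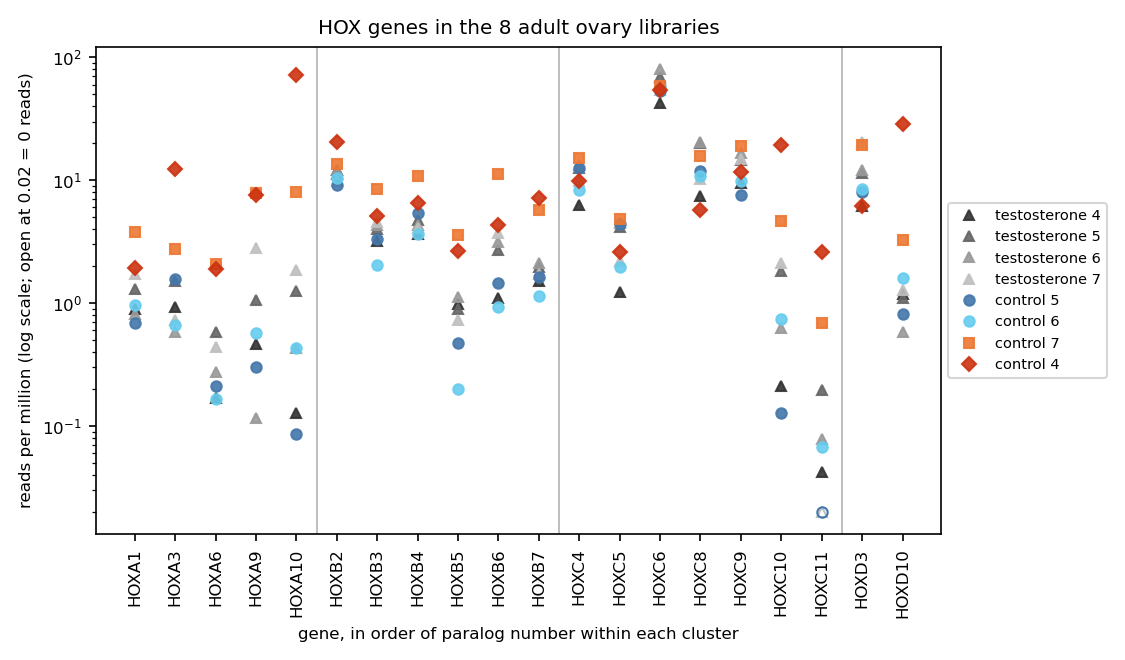
Level in RPM (vertical axis, log scale) of the 20 HOX genes of the adult tables in the 8 adult libraries, in order of paralog number within each cluster; open symbols at the bottom stand for 0 reads (HOXC11 in control 5 and testosterone 7). Controls 4 (red diamonds) and 7 (orange squares) are the 2 highest for all HOXA and HOXB genes and for HOXC10, HOXC11 and HOXD10, while HOXC4 to HOXC9 and HOXD3 do not have both at the top.

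Smooth muscle genes shared this order in part. Controls 4 and 7 were also the 2 highest libraries for 5 of 9 listed smooth muscle markers (MYH11, DES, TAGLN, CNN1 and ACTG2). MYH11, the smooth muscle myosin heavy chain, was at 11200, 3520, 886 and 4600 RPM in controls 4 to 7 and at 895, 3930, 2990 and 911 in testosterone 4 to 7. The summed markers ran from 3010 to 35700 in the controls and from 3290 to 9400 in the testosterone libraries, and control 7, at 9710, was close to testosterone 5, at 9400. The pair was highest for 1 of 7 granulosa markers (INHBA) and for 0 of the markers listed for endothelium, oviduct and rete epithelium, surface epithelium, theca and stroma, corpus luteum, germ cells and leukocytes. The erythroid list had no gene in the adult tables. Of the 25 listed other homeobox genes of gonad and tract, 2 shared it (EMX2 and BARX1). The part of these cells in the HOX levels was not tested.

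Control 4 alone was the highest of the 8 libraries for 14 of the 37 genes, or 37.8%, against 21.3% of the genes in all tables. IRX3 was at 38.4, 8.28, 5.94 and 4.76 RPM in adult controls 4 to 7 and at 9.74, 8.8, 8.57 and 6.5 in testosterone 4 to 7. MEIS3 was at 105, 50.0, 45.9 and 53.5 and at 60.3, 79.7, 79.3 and 59.4. Both had control 4 on top with TMM scaling, where its factor of 0.752 was the lowest of all libraries and a lower factor raises RPM. The order with total reads was not compared. The other controls lay below every testosterone library for MEIS3 and overlapped them for IRX3. DLX2 was at 1.47, 0.47, 0.334 and 0.173 in the controls and at 0.381, 0.195, 0.195 and 0.635 in the testosterone libraries, resting on 4 to 31 reads.

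The libraries rich in luteal markers set a few genes apart. SIX2, known for nephron progenitors, was at 7.65 RPM in control 6 and at 3.94 and 4.64 in testosterone 4 and 7. Controls 4, 5 and 7 had 0.284, 0.0854 and 0.13 RPM, testosterone 5 had 0.0389, and testosterone 6 had 0 reads, which allows up to 0.117 RPM. The 3 high libraries are those with the high corpus luteum marker sums, and the others had at most 6 reads of SIX2. PITX3 also had these 3 libraries on top, at 1.03, 1.82 and 1.12, with 0.474 as the highest of the rest. These were 2 of the 37 genes, against 14.9% of the genes in all tables with the 3 libraries above the other 5.

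In 6 of the 37 genes, or 16.2%, those 3 libraries were below the other 5, against 11.2% of the genes in all tables. They were HOXB4, HOXC5, IRX5, MEIS2, MSX1 and SIX5. SIX5 was at 23.0, 21.3 and 22.7 RPM in the 3 libraries, and at 43.5, 44.5, 45.8, 47.2 and 59.6 in controls 4, 5 and 7 and testosterone 5 and 6. MSX1, a gene of mesenchyme and of fetal germ cells, was at 3.81, 5.8 and 4.5 in the 3, and at 10.2, 26.8, 9.6, 18.7 and 14.1 in the rest. The part of luteal tissue in these levels was not tested.

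PBX2 and PITX1 showed other orders. PBX2 was at 166, 164, 137 and 200 RPM in controls 4 to 7 and at 124, 179, 179 and 174 in testosterone 4 to 7, the narrowest span of the 37 at 1.62-fold. PITX1, known for pituitary and hindlimb, was at 0.19, 14.6, 1.9 and 3.85 and at 2.03, 6.31, 3.93 and 0.391. Control 5 was the highest library for PITX1 and control 4 the lowest, a span of 77.0-fold. The limma log2 change of PITX1 was 1.0 with a standard error of 1.41 in the first table and 0.84 with a standard error of 1.38 in the second. Its direction was not stable, since in the first table edgeR gave -0.46, DESeq2 gave -0.45 and limma without control 4 gave -0.48, and in the second limma without control 4 gave -0.34.

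Fetal and adult ovaries were compared by the ranges of their control libraries, without a test, because the tables were normalized separately and ages were not mixed in any of them. Of the 35 genes in all tables, 9 had ranges that did not overlap. Adults were higher for 4 (HOXB2, HOXB4, MEIS2 and PBX2), or 11.4%, against 18.7% of all genes. Adults were lower for 5 (DLX4, HOXC5, IRX5, PITX3 and SIX5), or 14.3%, against 21.5%. Both shares are below the background. With total reads in place of TMM, which shifts the median of all genes by -0.32 on the log2 scale, the split was 1 higher (MEIS2) and 6 lower, against 9.85% and 32.6% of all genes.

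DLX4, expressed in placenta and in the embryo, had the largest difference among the 9. It was at 5.56, 7.09 and 7.64 RPM in the fetal controls and at 0.758, 0.555, 0.134 and 0.259 in adult controls 4 to 7. The means were 6.76 ± 1.08 (SD, n = 3) and 0.427 ± 0.283 (SD, n = 4), which is 15.9-fold lower in adults. The fetal testosterone libraries, at 4.28 to 6.27, and the adult ones, at 0.169 to 0.623, kept the same separation. Other DLX genes went from listed to not listed (DLX5 and DLX6) or overlapped (DLX2, 0.528 ± 0.158 and 0.611 ± 0.584).

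Among the 9, MEIS2 had the largest difference upward. It was at 19.2, 16.3 and 16.0 RPM in the fetal controls and at 54.7, 47.1, 31.4 and 45.3 in the adult ones, which is 2.6-fold higher in adults. The other HOX cofactors differed less. PBX2 ran from 112 to 130 in fetal controls and from 137 to 200 in adult controls. MEIS1 (63.1 ± 8.89 and 69.9 ± 41.4) and MEIS3 (47.8 ± 1.93 and 63.5 ± 27.6) overlapped.

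Among HOX genes, HOXB4 was at 3.33, 2.05 and 3.19 RPM in fetal controls and at 6.54, 5.42, 3.67 and 10.9 in adult controls. HOXB2 was at 6.02 to 8.81 and at 9.18 to 20.5, with the closest values nearly touching. HOXC5 was lower in adults, at 5.45, 5.45 and 6.32 against 2.61, 4.4, 1.97 and 4.8. The other 16 HOX genes in all tables overlapped, among them HOXC6, with means of 50.0 ± 4.06 and 56.0 ± 2.77. All 6 HOXB genes had a higher mean in adult controls, with TMM, DESeq2 size factors and total reads, and controls 4 and 7 were the 2 highest adult libraries for each. Between the testosterone groups this did not hold for HOXB2 (11.4 in fetuses and 11.3 in adults), HOXB5 (1.58 and 0.933) and HOXB7 (1.98 and 1.82). For HOXA10 the adult mean of 20.2 ± 35.0 rests on control 4.

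IRX5, a granulosa gene in the mouse ovary, was at 15.4, 16.0 and 13.9 RPM in the fetal controls and at 6.16, 10.3, 4.07 and 8.3 in the adult controls, 2.09-fold lower in adults. PITX3 was at 1.21 to 1.88 and at 0.0865 to 1.03, and SIX5 was at 52.8 to 60.4 and at 23.0 to 45.8. In both genes the adult libraries spread more widely than the fetal ones. Taking testosterone libraries in with controls, 1 of the 35 genes was higher in adults without overlap (MEIS2), against 11.1% of all genes. Lower without overlap were 3 of the 35 (DLX4, HOXC5 and IRX5), against 12.4% of all genes.

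The count by age also depended on adult control 4. Without it 14 of the 35 had no overlap, 5 higher and 9 lower, against 23.5% and 26.1% of all genes. The added genes were PBX4, higher in adults, and HOXA3, IRX3, IRX6 and MSX2, lower.

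**Figure D5:**
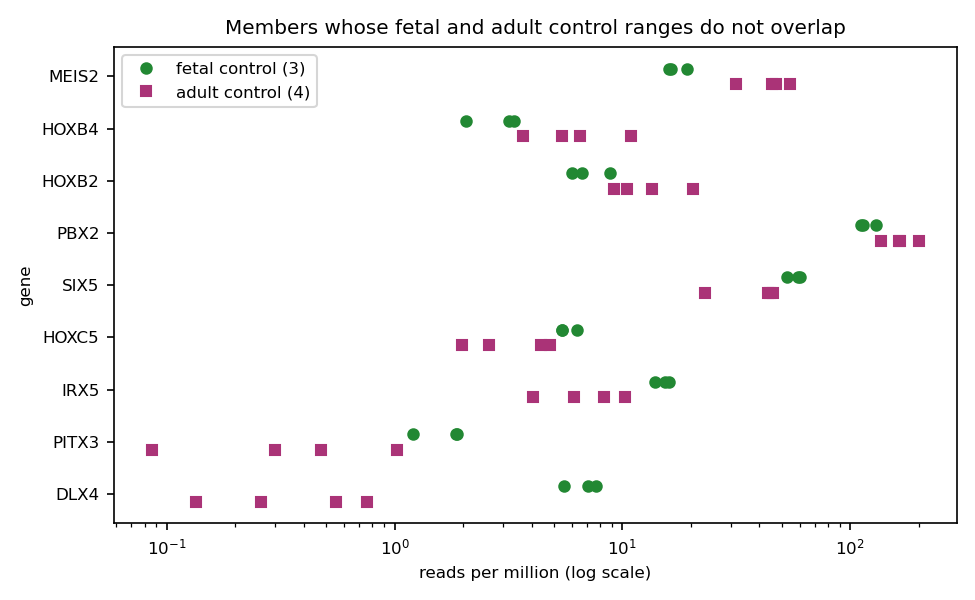
Level in RPM (horizontal axis, log scale) of the 9 genes whose fetal control range (3 green circles) and adult control range (4 purple squares) do not overlap, ordered by the size of the difference. DLX4 has the widest gap, with means of 6.76 and 0.427, and MEIS2 is the upward extreme, with means of 17.2 and 44.6.

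Genes that act with or upstream of these families were looked at as 6 lists, and limma called 0 of their genes in any table. In the fetal table an unadjusted limma p under 0.05 was reached by 1 of 5 TALE genes outside the families above, 1 of 4 EYA and DACH genes, partners of the SIX2 to SIX5 family, 4 of 19 polycomb and trithorax genes, 1 of 18 caudal and retinoic acid genes and 2 of 29 other homeobox genes. It was reached by 0 of 16 WNT, BMP and SHH genes. All but 1 of these were lower with testosterone. Over all fetal genes the shares were 5.26% higher and 4.5% lower.

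PKNOX2, a TALE gene, had the smallest p of the lists in the fetal table. It ran from 18.6 to 21.1 RPM in controls and from 14.1 to 14.9 in testosterone libraries, with a log2 change of -0.42 and a standard error of 0.12 (limma unadjusted p = 0.00654, adjusted p = 0.326). PHC3, a polycomb subunit, ran from 55.7 to 63.2 and from 35.9 to 51.0, with a log2 change of -0.42 and a standard error of 0.14. EYA3, of the EYA and DACH list, ran from 31.7 to 34.2 and from 21.6 to 29.3. TSHZ1 was the gene with a higher level, at 81.6 to 89.6 in controls and 89.7 to 105 in testosterone libraries.

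The polycomb and trithorax list had a median log2 change of -0.106 in the fetal table, with 5 of 19 above 0, and the WNT, BMP and SHH list had -0.194 with 2 of 16 above 0. Both stand beside a median of -0.019 over all genes. In the adult tables the same lists had medians of 0.024 and 0.238 in the first and 0.018 and 0.125 in the second.

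ALDH1A3, an enzyme that makes retinoic acid, an inducer of HOX genes, had an unadjusted limma p under 0.05 at both ages. In fetuses it ran from 65.1 to 79.4 RPM in controls and from 29.1 to 59.0 in testosterone libraries, with a log2 change of -0.64 and a standard error of 0.25 (limma adjusted p = 0.47). In adults it ran from 32.7 to 41.6 in the 4 controls and from 13.6 to 25.7 in the 4 testosterone libraries. The adult log2 changes were -0.84 with a standard error of 0.30 in the first table and -0.89 with a standard error of 0.30 in the second (limma adjusted p = 1 in both). Neither group of libraries overlapped the other at either age. Of all genes, 7.46% had no overlap with testosterone lower in fetuses and 0.292% over the 8 adult libraries. ALDH1A3 had the smallest p of the caudal and retinoic acid list, whose genes did not all go its way. Log2 changes were above 0 for 7 of 18 in fetuses, 4 of 14 in the first adult table and 7 of 14 in the second. EYA1, of the EYA and DACH list, had an unadjusted limma p of 0.042 in the first adult table with a log2 change of 1.18, and 0.244 with 0.79 in the second.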

How the data were processed

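RNA was measured in 14 whole-ovary libraries. Per the labels each was built from 500 ng of total RNA and sequenced in pairs of 150 bases. Per the submitters' processing notes, Trimmomatic 0.36 and STAR 2.5.2b were used. No source used here names the counting program, genome build or strand setting. Of the 3 tables the authors deposited, each holds a normalized signal per library, which is a count divided by a library size factor, and the authors' log2 change, p-value and adjusted p. For each library 100% of its values divided by 1 fixed step gave whole reads, to within 0.01, and these reads were used. Control 4, testosterone 5 and testosterone 6 are identical in both adult tables. The first adult table gives control 6 with 26.4 M reads and the second with 33.4 M; no gene (0) has more reads in the first, and the library counts once.

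Each table was fitted on its own with limma 3.58.1 (R 4.3.3), using log2(value + 1), a trend of variance on mean, a minimum mean of 10 and a Benjamini-Hochberg threshold of 0.05 over all genes kept. DESeq2 1.42.0 and edgeR 4.0.16 were run on recovered reads, and the 3 tools were tested on simulated data. For some genes limma log2 changes were smaller or larger than those of edgeR and DESeq2. In fetuses DLX2, with 1 to 21 reads, was at -1.34 by limma and -0.80 by the other tools. HOXC10 had 11 reads in testosterone 3 and 45 to 147 in the other fetal libraries. It was at -0.003 by limma, 0.62 by edgeR and 0.63 by DESeq2. Levels use recovered reads and TMM over genes in all tables. Counts of 0 were treated as up to 3 reads, which covers counting error only.

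The genes, lists and tests were chosen with earlier results of these data known. Some genes of these families are not reported here. Named with values are genes without overlap between groups and an unadjusted p under 0.05, the gene of each family with the highest RPM at each age (a choice of examples, since RPM is not divided by length), the genes whose age ranges do not overlap, and up to 3 genes of each other list by p. HOXC9 and IRX5 in fetuses, and the adult genes named for their spread between libraries, were chosen after their values were seen. The series text counts 3 adult controls where the labels give 4, and the labels were followed.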

Additional observations from a re-analysis of the deposited data

Results flagged for a closer look

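In 7 of 74 groups of 4 adult libraries, 1 library lay far from the other 3, by Dixon's gap test at the 95% level. Chance flags about 1 in 20 groups where values are normally distributed, which was not checked. The test was run on RPM and not on log2 levels, where large values stand out less, and the genes share libraries. Of the 7, 4 were adult control 4. HOXA10 was at 72.4 RPM there, and 8.0 in the next control. HOXD10 was at 28.5 against 3.24, IRX3 at 38.4 against 8.28, and MEIS3 at 105 against 53.5. Control 4 had the lowest TMM factor of all libraries, 0.752, and a lower factor gives higher RPM. The gap test was not run with total reads. Control 4 had a smooth muscle marker sum of 35700, and whether that has a part in these levels was not tested.

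Among the controls, control 6 stood apart for SIX2, at 7.65 with the next at 0.284, and for SIX5, at 23.0 with the next at 43.5. Among the testosterone libraries, testosterone 4 stood apart for PBX2, at 124 with the next at 174. Control 6 and testosterone 4 are among the 3 libraries with high luteal marker sums.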

How the results depend on the processing

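The count of called genes was 0 in the fetal table and in both adult tables under each alternative run, over the genes each tool tested. At a threshold of 0.05 this held with limma, edgeR and DESeq2. With limma it also held at 0.1, with other pseudocounts and filters, with quantile normalization and with all 8 adult libraries in 1 fit. The threshold of 0.1 was not applied to the other tools, and the DESeq2 adjusted p of HOXB2 in fetuses, 0.0986, lies under it. Leaving out 1 library at a time also gave 0 throughout. Over all genes the tools differed more, with 3 calls by limma and 261 by DESeq2 in the fetal table. Same-numbered samples did not deviate together in every pair (correlations of 0.13, 0.01 and 0.40 in the fetal table, and of -0.48 to 0.33 in the adult tables), so the numbers were not taken as pairs. With the replicate block the count was 0 in each table, and the log2 change of HOXB2 in fetuses stayed at 0.68. In the second adult table, where only numbers 6 and 7 are in both groups, so that control 4 and testosterone 5 drop out of the contrast, it moved HOXA10 from -2.68 to -1.09 and HOXD10 from -2.5 to -1.4, and PITX1 reversed from 0.84 to -1.11. With the block the first adult table had 192 genes at an unadjusted p under 0.05, against 101 without it, and the second had 39, against 78.

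The count of genes whose age ranges did not overlap was 9, and leaving out 1 control at a time gave 9 to 14. The high value, 14, came without adult control 4. The shares of all genes rose there too, from 18.7% to 23.5% higher and from 21.5% to 26.1% lower. The count was 7 with total reads, where 9.85% of all genes were higher and 32.6% lower. It was 8 over the testosterone libraries. The share over all genes was not counted for the testosterone libraries or for the other controls left out. Without adult control 4 the log2 change in the first adult table reversed to 0.80 for HOXA10, and DESeq2 without control 4 gave 0.98. Over the 6 libraries left out in turn it ran from -3.80 to 0.80. Chosen after the data were seen, DESeq2 fits without control 4 and limma fits of the joined adult libraries without control 4, and without control 6 and testosterone 4 and 7, also called 0. The order of genes by level per kilobase was not run. The adult standard errors, with medians of 0.71 and 0.75, limit what those tables can show.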
